A study of Rattus norvegicus with 6 samples.

Results

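Oxidative phosphorylation genes code for the machinery that turns the reducing power of nutrients into ATP at the inner mitochondrial membrane. Here they were taken from the deposited count table by symbol. The genes chosen were those whose symbol begins, in upper or lower case, with Mt-nd, Mt-co, Mt-cyb or Mt-atp, with Ndufa, Ndufb, Ndufc, Ndufs or Ndufv, with Uqcr, with Cox4 to Cox8 or with Atp5, together with Sdha, Sdhb, Sdhc and Sdhd. This gave 107 of the 32161 genes in the table, 13 mitochondrially encoded and 94 nuclear encoded. The samples were primary rat cells of the articular cartilage surface, its superficial layer. In 3 libraries the cells had been under shear of 20 dyne/cm² (shear), and in 3 libraries they were kept at 0 dyne/cm² (static). No other agent, duration, age or strain is given in the sources used here. Whether replicates are separate cultures or animals is not stated. The p-values set the difference between the groups against the scatter among these libraries only, and that scatter may be technical. Messenger RNA was sequenced, and the comparison asks which of these transcripts differ between sheared and static cells.

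Electrons enter the respiratory chain at complex I (NADH dehydrogenase) and complex II (succinate dehydrogenase), pass through ubiquinone to complex III and by cytochrome c to complex IV (cytochrome c oxidase), which reduces oxygen. Complexes I, III and IV pump protons, and the ATP synthase, complex V, uses the gradient. Complexes I, III, IV and V hold subunits from both genomes, while complex II is built from nuclear genes alone. The mitochondrial genes are transcribed as long precursors that are cut into shorter messengers, so neighbours share their transcription. Each nuclear gene has a promoter of its own. Chondrocytes live in tissue with little oxygen and are known for relying heavily on glycolysis.

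Library totals ran from 33342775 to 33979479 counts, and edgeR's quasi-likelihood test was run on the 13945 genes that passed its low-count filter. Of these, 2583 (18.5%) passed an adjusted p of 0.05, 10.8% higher and 7.71% lower under shear. Higher genes made up 58.4% of the calls with the TMM scaling used here, 48.3% under upper-quartile scaling and 39.4% under library totals alone. The cells expressed Prg4 (lubricin), Sox9, Acan, Dcn and Lum, while Col2a1, which codes for type II collagen, was at 4 to 8 counts a library. By the edgeR test Sox9, Lum, Prg4 and Dcn were higher under shear (log2 fold changes 1.26, 0.32, 0.25 and 0.17) and Acan was lower (-0.34). Comp, a cartilage matrix gene, was at 6 to 18 counts, and Col1a1, a type I collagen gene typical of fibrous tissue, averaged 6602 CPM in shear and 6098 CPM in static libraries, so the markers of cartilage matrix were present only in part. Of the markers of other cells, the red cell genes Hbb, Hba-a2 and Alas2 had 0, 0 to 2 and 0 to 8 counts a library. The brown fat genes Ucp1 and Cidea had 0 and 4 to 16 counts. The 4 macrophage markers summed to 2.04 to 2.48 CPM (counts scaled to library size) in shear and 2.81 to 3.29 CPM in static libraries. The 4 endothelial markers summed to 5.24 to 9.22 CPM in shear and 9.79 to 11.8 CPM in static libraries. Most of that difference was Kdr, which averaged 3.68 CPM in shear and 7.28 CPM in static libraries, while Tek averaged 3.13 and 3.28 CPM. The 7 striated muscle markers, none at 0 in every library, summed to 22.3 to 23.3 CPM in shear and 48.4 to 50.4 CPM in static libraries. The part of these cells in the results below was not tested.

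Of the 13 mitochondrially encoded members, all of which were tested, 6 rose, 0 fell and 7 did not pass (46.2% called, against 18.5% of all genes tested), with a median log2 fold change of 0.15. Of the 94 nuclear encoded members 84 were tested, of which 3 rose, 5 fell and 76 did not pass (9.52% called), with a median of -0.03. The median over all genes tested was -0.01. Without shear replicate 2 the mitochondrially encoded members that rose numbered 4 and their median was 0.063. The members that rose were Mt-nd2, Mt-nd4, Mt-nd4l, Mt-co1, Mt-cyb and Mt-atp6 among mitochondrial genes, and Uqcrb, Ndufaf4 and Cox4i2 among nuclear ones. Those that fell were Ndufa12, Ndufb8, Ndufaf2, Sdha and Cox6a1. All these changes were small, between 0.15 and 0.36 in size on the log2 scale, against a median of 0.33 for all genes that passed. Called or not, the median size of change was 0.15 for the mitochondrially encoded members, 0.06 for the nuclear encoded ones and 0.14 over all genes tested. The high share of mitochondrially encoded members called thus did not go with changes much larger than those of other genes. In a bulk sample a change in the number of cells of a type and a change in RNA per cell cannot be told apart.

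Summed over the library, the mitochondrially encoded members took 2.35%, 2.69% and 2.40% of counts in the shear libraries (replicates 1, 2 and 3), against 2.26%, 2.33% and 2.40% in the static libraries. The groups overlapped on these library totals, and shear replicate 2 stood above the other libraries. On the TMM-scaled totals used for CPM, an alternative added after the data were seen, the shares were 2.37%, 2.75% and 2.45% in shear and 2.25%, 2.27% and 2.35% in static libraries, without overlap. The mean was 2.48 ± 0.18% in shear and 2.33 ± 0.07% in static libraries (SD, n = 3 each), a difference of 0.15 percentage points on library totals, 0.048 without shear replicate 2, and 0.24 on TMM-scaled totals. The nuclear encoded members took 0.506%, 0.490% and 0.492% in the shear libraries, against 0.516%, 0.524% and 0.515% in the static libraries. On library totals each shear library lay below each static one. On TMM-scaled totals the groups overlapped, with 0.511%, 0.501% and 0.502% in shear and 0.513%, 0.511% and 0.504% in static libraries. The sum of mitochondrially encoded counts was 4.64, 5.48 and 4.89 times that of nuclear encoded counts in shear and 4.38, 4.44 and 4.66 times in static libraries, so that shear replicate 1 fell within the static range. The other 24 genes on the mitochondrial chromosome, which carry placeholder symbols, took 0.0520% to 0.0574% of counts in shear and 0.0518% to 0.0554% in static libraries.

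**Figure D1:**
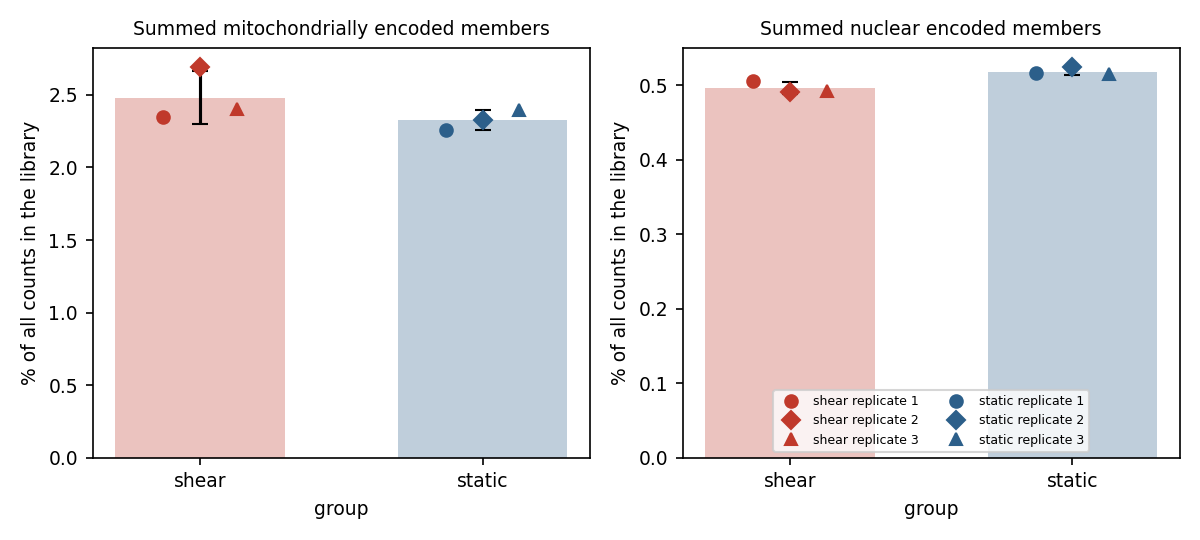
Share of all counts in a library (%, y axis) taken by the mitochondrially encoded members (left) and the nuclear encoded members (right), for shear and static libraries. Points are libraries, bars are means and whiskers SD (n = 3 each); shear replicate 2, at 2.69%, is the highest point on the left, and the shear libraries lie below the static ones on the right, which they do not on TMM-scaled totals.

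The mitochondrial members of complex I, the entry point for NADH, were led by Mt-nd4l and Mt-nd4, neighbouring genes for subunits of its membrane arm. Mt-nd4l (MT, 9870 to 10166 in the table's coordinates, whose build is not named) had 603, 764 and 796 CPM in the shear libraries, against 564, 554 and 560 CPM in the static libraries. The groups did not overlap, and the 2 higher shear libraries were replicates 2 and 3. Mt-nd4l rose by 0.36 ± 0.07 (log2 fold change ± SE, edgeR adjusted p = 0.00024). Mt-nd4 (MT, 10160 to 11537) had 1169, 1382 and 1214 CPM in the shear libraries, against 1058, 1030 and 1073 CPM in the static libraries, again without overlap. It rose by 0.25 ± 0.05 (SE, edgeR adjusted p = 0.0010). The exons of this pair overlap by 7 bases in the table. The count of Mt-nd4l per count of Mt-nd4 was 0.516, 0.553 and 0.655 in shear and 0.533, 0.538 and 0.522 in static libraries, so the ratio did not separate the groups.

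Mt-nd2, another membrane arm subunit (MT, 3904 to 4942), had 2665, 3128 and 2844 CPM in the shear libraries, against 2553, 2547 and 2600 CPM in the static libraries. It rose by 0.17 ± 0.05 (SE, edgeR adjusted p = 0.022), with no overlap between the groups. Leaving out static replicate 1 or shear replicate 3 gave it an edgeR adjusted p of 0.052, leaving out static replicate 2 one of 0.058, and leaving out shear replicate 2 one of 0.15. It was 0.056 under upper-quartile scaling and 0.097 under library totals alone. The other 4 mitochondrial members of the complex did not pass. The estimates on the log2 scale were 0.09 ± 0.05 for Mt-nd1 and 0.15 ± 0.06 for Mt-nd5 (SE, edgeR adjusted p = 0.24 and 0.070). Mt-nd6, which is read from the opposite strand to the others, spread widely among the shear libraries, with 369, 519 and 444 CPM, against 414, 397 and 409 CPM in the static libraries. The strand setting of the counting is not given, so the Mt-nd6 count may include reads from the other strand. The log2 fold change of Mt-nd6 was 0.12 ± 0.07 (SE, edgeR adjusted p = 0.27), and Mt-nd3 gave 0.03 ± 0.06 (SE, edgeR adjusted p = 0.77). Without shear replicate 1 the edgeR adjusted p of Mt-nd5 was 0.00676 and that of Mt-nd6 0.00344. Without the low-count filter these were 0.00489 and 0.043. Without shear replicate 2 the fold changes of Mt-nd3 and Mt-nd6 were -0.02 and -0.00155.

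Mt-cyb codes for cytochrome b, the only subunit of complex III that the mitochondrial genome supplies (MT, 14136 to 15278). It had 1268, 1412 and 1297 CPM in the shear libraries, against 1155, 1160 and 1189 CPM in the static libraries, and the groups did not overlap. Mt-cyb rose by 0.18 ± 0.05 (SE, edgeR adjusted p = 0.0064).

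Of the 3 catalytic core subunits of complex IV, Mt-co1 rose. Mt-co1, which holds the site where oxygen is reduced (MT, 5323 to 6867), had 3960, 4355 and 3993 CPM in the shear libraries, against 3466, 3586 and 3744 CPM in the static libraries. Mt-co1 rose by 0.19 ± 0.05 on the log2 scale (SE, edgeR adjusted p = 0.0054), and each shear library lay above each static one. Mt-cox3 also separated the groups, with 1093, 1262 and 1101 CPM in shear and 1038, 1038 and 1081 CPM in static libraries. It did not pass (0.13 ± 0.05, SE, edgeR adjusted p = 0.080). Its adjusted p was 0.030 without shear replicate 1 and 0.019 without the low-count filter. Mt-co2, whose protein takes up the electrons of cytochrome c, had 1759, 2159 and 1841 CPM in the shear libraries, against 1811, 1853 and 1768 CPM in the static libraries. The groups overlapped, and the log2 fold change was 0.08 ± 0.06 (SE, edgeR adjusted p = 0.35), or -0.01 without shear replicate 2.

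Of the mitochondrial subunits of ATP synthase, Mt-atp6 passed and Mt-atp8 did not. Mt-atp6, part of the proton channel (MT, 7919 to 8599), had 4767, 5424 and 4755 CPM in the shear libraries, against 4413, 4297 and 4605 CPM in the static libraries. Mt-atp6 rose by 0.17 ± 0.05 (SE, edgeR adjusted p = 0.021). The adjusted p was 0.051 without static replicate 1, 0.091 without static replicate 2, 0.14 without shear replicate 2, 0.0508 with the replicate block, 0.055 under upper-quartile scaling and 0.095 under library totals alone. Mt-atp8, a small stator subunit (MT, 7758 to 7961), had 1645, 1874 and 1670 CPM in the shear libraries, against 1702, 1729 and 2045 CPM in the static libraries, with the highest value in static replicate 3. Its estimate on the log2 scale was -0.08 ± 0.06 (SE, edgeR adjusted p = 0.43), or 0.01 without static replicate 3. The exons of Mt-atp8 and Mt-atp6 overlap by 43 bases, 21.1% of the length of Mt-atp8, and how reads in the overlap were counted is not given in the sources used here. The count of Mt-atp8 per count of Mt-atp6 was 0.345, 0.346 and 0.351 in shear and 0.386, 0.402 and 0.444 in static libraries. This ratio, chosen after its values were seen, was lower in each shear library than in each static one. Counts per gene do not show whether these neighbours lie on the same messenger, and the cause of the difference was not tested.

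In all, 7 of the 13 mitochondrially encoded members had shear libraries that lay above the static ones (53.8%, against 16.7% of all genes tested), and 0 lay below them (15.9% of all genes tested). Mt-nd6 apart, these genes lie on 1 strand and neighbours share a precursor, so they are not independent of one another. Leaving out shear replicate 2 left 4 that rose, Mt-co1, Mt-nd4l, Mt-nd4 and Mt-cyb, and brought the median log2 fold change of the 13 to 0.063. The members that rose then had log2 fold changes of 0.15, 0.32, 0.18 and 0.14 in that order. Without static replicate 1 or 2 the same 4 rose, and without shear replicate 1 the number was 9. With every library kept, the number was also 9 without the low-count filter. Under upper-quartile scaling, and likewise under library totals alone, the same 4 rose.

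**Figure D2:**
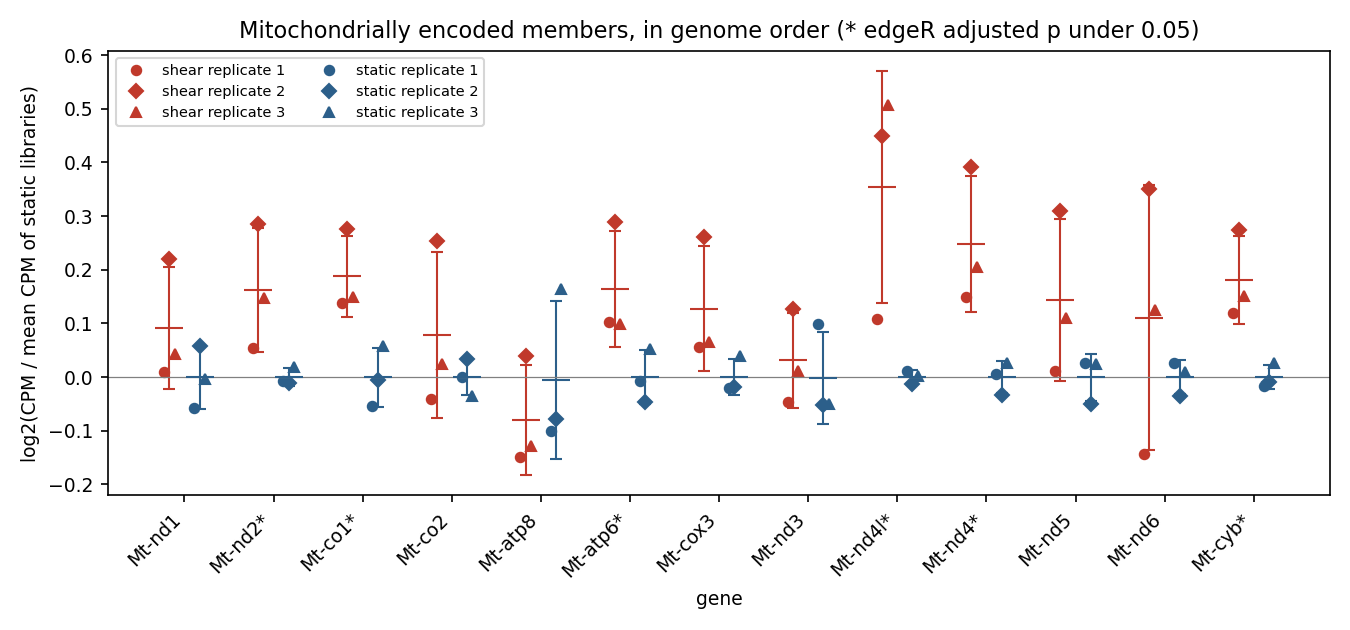
Level of each mitochondrially encoded member in every library, as log2 of its CPM over the mean CPM of the static libraries (y axis), in genome order (x axis). Points are libraries, dashes are group means with SD (n = 3 each) and stars mark edgeR adjusted p under 0.05; shear replicate 2 (red diamonds) is the highest shear library for every gene but Mt-nd4l, and Mt-atp8 is the gene whose shear mean lies below its static mean.

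Levels per length spread widely among the mitochondrially encoded members. On the TPM scale (counts per base of exon, scaled to the same total in each library), Mt-atp8 averaged 15682 in shear and 16904 in static libraries, and Mt-atp6 13528 and 12310. Mt-nd1 followed with 6468 TPM in shear and 6192 TPM in static libraries. The lowest was Mt-nd3, with 330 TPM in shear and 329 TPM in static libraries, although its neighbours Mt-cox3 and Mt-nd4l had 2717 and 4488 TPM in shear libraries. Nuclear encoded members tested had mean levels over the 6 libraries of 1.42 TPM (Atp5s) to 895 TPM (Uqcrh), with a median of 53.5, and the median of the mitochondrial members was 4023 TPM. These levels rest on the exon lengths in the table, and the 43 bases that Mt-atp8 shares with Mt-atp6 count in both lengths. They also depend on how multiply mapped reads were handled, which is not given, and the cause of the low level of Mt-nd3 was not tested.

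**Figure D3:**
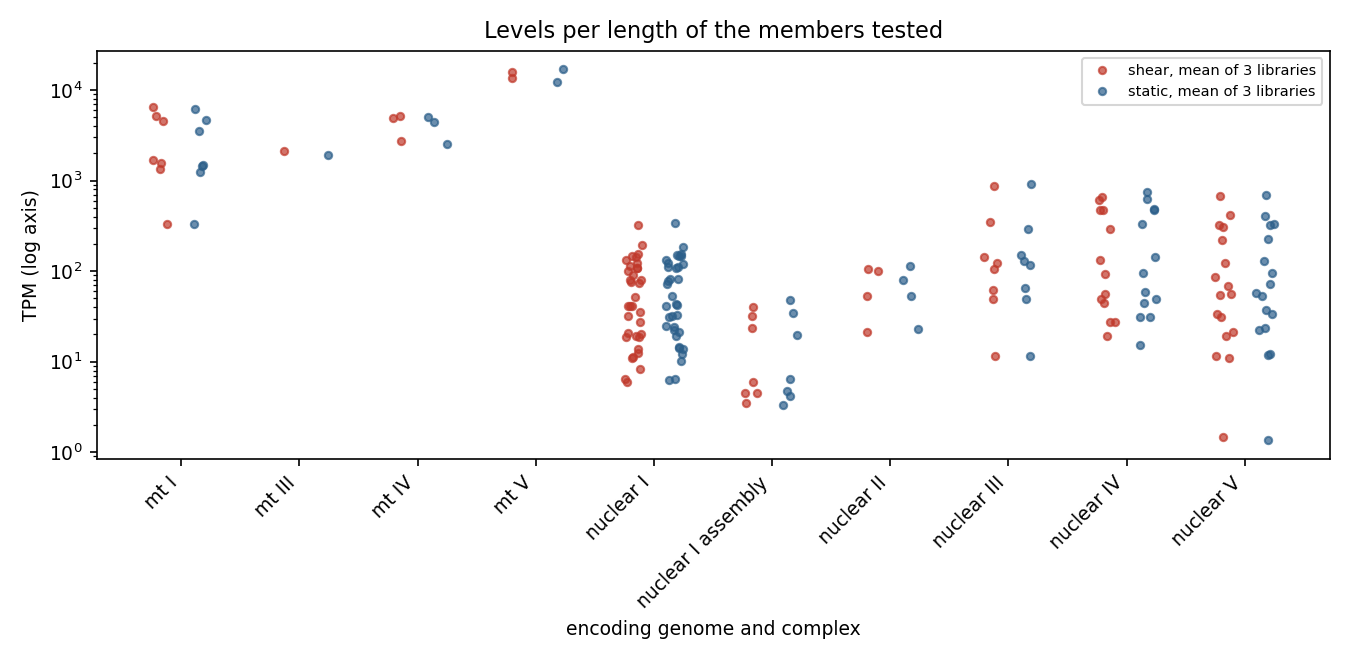
Mean level of each member tested (TPM, log axis) by encoding genome and complex (x axis), in shear (red, left) and static (blue, right) libraries, n = 3 each. Mitochondrially encoded members lie between 329 and 16904 TPM, and the nuclear encoded members, whose levels reach 908 TPM (Uqcrh, static), lie below most of them.

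Among the nuclear encoded members of complex I, with Ndufa4l2 counted here by its symbol, 35 of 38 were tested. Of these, 0 rose and 2 fell (5.71% called), with a median log2 fold change of -0.03. Ndufa12, an accessory subunit near the NADH-oxidising arm (chromosome 7, 35125424 to 35167406 in the table's coordinates), had 46.1, 44.6 and 43.5 CPM in the shear libraries, against 52.8, 55.6 and 53.2 CPM in the static libraries. The groups did not overlap, and Ndufa12 fell by 0.27 on the log2 scale (SE 0.05, edgeR adjusted p = 0.00086). Ndufb8, an accessory subunit of the membrane arm, had 52.4, 51.1 and 46.6 CPM in the shear libraries, against 54.6, 61.1 and 55.6 CPM in the static libraries. It fell by 0.19 (SE 0.06, edgeR adjusted p = 0.027). Its adjusted p was 0.19 without static replicate 2, 0.053 without shear replicate 2 and 0.18 without shear replicate 3. The largest estimate in size, that of the weakly expressed Ndufa3, was -0.35 ± 0.23 (SE, edgeR adjusted p = 0.34). Ndufb9, the nuclear encoded complex I gene with the highest level per length, had 320 TPM in shear and 340 TPM in static libraries, and its estimate on the log2 scale was -0.06 ± 0.05 (SE, edgeR adjusted p = 0.47).

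The 7 Ndufaf genes, whose products help to build complex I without staying in it, were all tested, and 1 rose and 1 fell. Ndufaf4 (chromosome 5, 39251337 to 39257512) had 39.4, 40.0 and 37.7 CPM in the shear libraries, against 32.9, 31.6 and 31.5 CPM in the static libraries. It rose by 0.29 ± 0.06 (SE, edgeR adjusted p = 0.00087), and the groups lay well apart. Ndufaf2, which resembles Ndufa12 in sequence and binds its place during assembly, had 23.1, 23.6 and 23.0 CPM in the shear libraries, against 25.6, 30.6 and 24.7 CPM in the static libraries. Ndufaf2 fell by 0.22 (SE 0.08, edgeR adjusted p = 0.049), and its adjusted p was 0.41 without static replicate 2, 0.11 without shear replicate 1, 0.099 without shear replicate 2 and 0.13 without shear replicate 3. The call also ended with RLE size factors (0.051), limma-voom (0.064), DESeq2 (0.074) and the replicate block (0.052).

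Ndufa12 and Ndufaf4 moved in opposite directions in every alternative run, and their promoters are shown because both hold the same letters. The windows are from RefSeq, build GRCr8, 250 bases before to 50 after the start of the gene, and capitals mark matches, on either strand, to GCGC, any base and TGCGC in a row, the core of the motif of the transcription factor NRF1, a known regulator of nuclear respiratory genes. That of Ndufa12 is chr7:30658066-30658365 on the + strand and that of Ndufaf4 chr5:43401545-43401844 on the + strand.
Ndufa12: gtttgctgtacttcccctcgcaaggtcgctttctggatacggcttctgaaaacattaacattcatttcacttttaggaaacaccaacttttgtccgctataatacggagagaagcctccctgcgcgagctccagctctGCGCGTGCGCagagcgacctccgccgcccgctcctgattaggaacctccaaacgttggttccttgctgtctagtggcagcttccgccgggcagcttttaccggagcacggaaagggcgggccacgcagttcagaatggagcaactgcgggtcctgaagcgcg
Ndufaf4: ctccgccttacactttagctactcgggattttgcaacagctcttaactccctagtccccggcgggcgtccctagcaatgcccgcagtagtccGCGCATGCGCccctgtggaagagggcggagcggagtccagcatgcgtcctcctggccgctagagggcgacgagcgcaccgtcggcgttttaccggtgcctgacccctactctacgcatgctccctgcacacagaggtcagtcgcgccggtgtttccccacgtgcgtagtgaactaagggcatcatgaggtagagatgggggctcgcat

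A RefSeq promoter was matched for 81 of the 94 nuclear encoded members, 73 of them tested. Matching was by symbol, and for Ndufs5 and Cox7a2l2 the promoter lies on another chromosome than the counted exons. These NRF1 letters were in 15 of the 73 (20.5%), against 10.1% of 9956 matched promoters of genes tested and 4.60% of all 27457 promoters of the same length. CCGGAAG, letters bound by ETS factors such as GABP, was in 26.0% of the 73, against 17.7% of the genes tested. AAGATGGC, the core of the YY1 motif, was in 20.5% against 5.77%, and AAGGTCA, that of the receptor ERR-alpha, in 13.7% against 2.73%. The 4 sets of letters were searched on both strands and do not contain one another. Of the 8 nuclear members that passed the test, 5 had a matched promoter. NRF1 letters were in 3 of these, Ndufa12 and Sdha, which fell, and Ndufaf4, which rose. YY1 letters were in 1, Ndufb8.

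Complex II, the 4 nuclear Sdh genes, held 1 member that fell. Sdha, the flavoprotein that oxidises succinate (chromosome 1, 31545631 to 31570601), had 127, 121 and 122 CPM in the shear libraries, against 138, 135 and 136 CPM in the static libraries. It fell by 0.15 (SE 0.05, edgeR adjusted p = 0.027), with no overlap between the groups. The adjusted p was 0.099 without static replicate 1, 0.072 without static replicate 2, 0.058 without static replicate 3, 0.087 without shear replicate 2 and 0.10 without shear replicate 3, and it was 0.051 without the low-count filter and 0.055 with the replicate block. Sdhc, a membrane anchor, had 66.2, 65.5 and 63.7 CPM in the shear libraries, against 65.2, 59.4 and 22.4 CPM in the static libraries. The low value is static replicate 3 alone, with 776 counts where the other 5 libraries had 2052 to 2225. Its estimate of 0.41 ± 0.19 on the log2 scale (SE, edgeR adjusted p = 0.15) rested on that library, and without it the value was 0.06 (edgeR adjusted p = 0.56). Sdhc passed without static replicate 1 (0.00992) or 2 (0.019), without the low-count filter (1.3e-10) and with the replicate block (0.027), in each case with the low library included. Sdhb and Sdhd did not pass.

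All 8 nuclear encoded members of complex III were tested, and 1 rose. Uqcrb, a small subunit near the ubiquinone site, had 275, 286 and 281 CPM in the shear libraries, against 259, 204 and 229 CPM in the static libraries. The groups did not overlap, and the static libraries spread more widely than the shear ones. Uqcrb rose by 0.28 ± 0.06 (SE, edgeR adjusted p = 0.0013). Its exons lie on 2 chromosomes in the table, 1 and 7, so its count may combine copies of the gene and is uncertain. Uqcrh, the nuclear member with the highest level per length, gave 881 TPM in shear and 908 TPM in static libraries. Its log2 fold change was -0.01 ± 0.05 (SE, 95% interval -0.11 to 0.09, edgeR adjusted p = 0.90).

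In complex IV 13 of 20 nuclear encoded members were tested, counting Ndufa4, now known as a subunit of this complex, and 1 rose and 1 fell. Cox4i2 is the isoform of subunit 4 known to be induced by low oxygen, and Cox4i1 is the common one. Cox4i2 (chromosome 3, 148234193 to 148245416) had 12.1, 9.47 and 11 CPM in the shear libraries, against 9.09, 8.71 and 7.53 CPM in the static libraries. The groups did not overlap, and Cox4i2 rose by 0.36 ± 0.11 (SE, edgeR adjusted p = 0.019). Its adjusted p was 0.098 without static replicate 3, 0.10 without shear replicate 1 and 0.059 without shear replicate 3. Cox4i1 had 253, 232 and 236 CPM in the shear libraries, against 235, 248 and 249 CPM in the static libraries, and a log2 fold change of -0.02 ± 0.05 (SE, 95% interval -0.12 to 0.08, edgeR adjusted p = 0.82). Per length, Cox4i2 made up 3.22%, 2.75% and 3.13% of the sum of both isoforms in shear and 2.61%, 2.38% and 2.06% in static libraries, so the share was higher in each shear library and small in all 6.

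Cox6a1, the broadly expressed form of subunit 6a, had 87.2, 85.4 and 86.1 CPM in the shear libraries, against 94.7, 102 and 91.0 CPM in the static libraries. It fell by 0.15 (SE 0.05, edgeR adjusted p = 0.038). The adjusted p was 0.071 without static replicate 1, 0.28 without static replicate 2, 0.063 without shear replicate 1 and 0.11 without shear replicate 2 or 3, and it was 0.052 without the low-count filter and 0.066 with the replicate block. The forms known from heart and skeletal muscle were nearly silent: Cox6a2 had 2 counts in each shear and 0 in each static library, Cox7a1 had 0 to 2 and Cox8b 0 to 2. Cox6b2 and Cox8c, known from testis, had 0 to 3 and 0 counts. The common forms Cox6b1 (0.0045 ± 0.06) and Cox8a (0.04 ± 0.11) did not pass. Neither did Cox7a2l, which links complexes III and IV (-0.17 ± 0.08), Cox5b, the nuclear encoded complex IV gene with the highest level per length (-0.14 ± 0.06), or Ndufa4 (-0.04 ± 0.07; log2 fold changes ± SE, edgeR adjusted p 0.10 to 0.97). Cox5b was called lower without static replicate 3, without shear replicate 1, as well as under upper-quartile scaling or library totals alone, and its lowest adjusted p over the alternatives was 0.013. Ndufa4l2, a relative of Ndufa4 known to be induced by low oxygen, was counted with complex I by its symbol. It had 105, 82 and 118 counts in the shear libraries, against 116, 96 and 113 counts in the static libraries. Ndufa4l2 did not follow Cox4i2 (-0.04 ± 0.17, SE, edgeR adjusted p = 0.92).

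Of the 17 nuclear encoded members of complex V, all tested, 0 rose and 0 fell by edgeR, and 1 had an unadjusted p under 0.05. Under upper-quartile scaling, and likewise under library totals alone, Atp5c1 was called lower, and with the other tools, DESeq2 and limma-voom, 0 were called. Atp5b, the catalytic beta subunit, was the most abundant of them with 677 TPM in shear and 687 TPM in static libraries. It had 660, 651 and 636 CPM in the shear libraries, against 656, 645 and 633 CPM in the static libraries, a log2 fold change of 0.01 ± 0.04 (SE, 95% interval -0.08 to 0.10, edgeR adjusted p = 0.92). The genes for subunit c, whose ring turns as protons pass, gave -0.26 ± 0.13 (Atp5g1), -0.06 ± 0.09 (Atp5g2) and 0.06 ± 0.07 (Atp5g3) on the same scale (SE, edgeR adjusted p 0.18 to 0.75). The members Atp5s and Atp5sl were counted here by their symbols only.

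**Figure D4:**
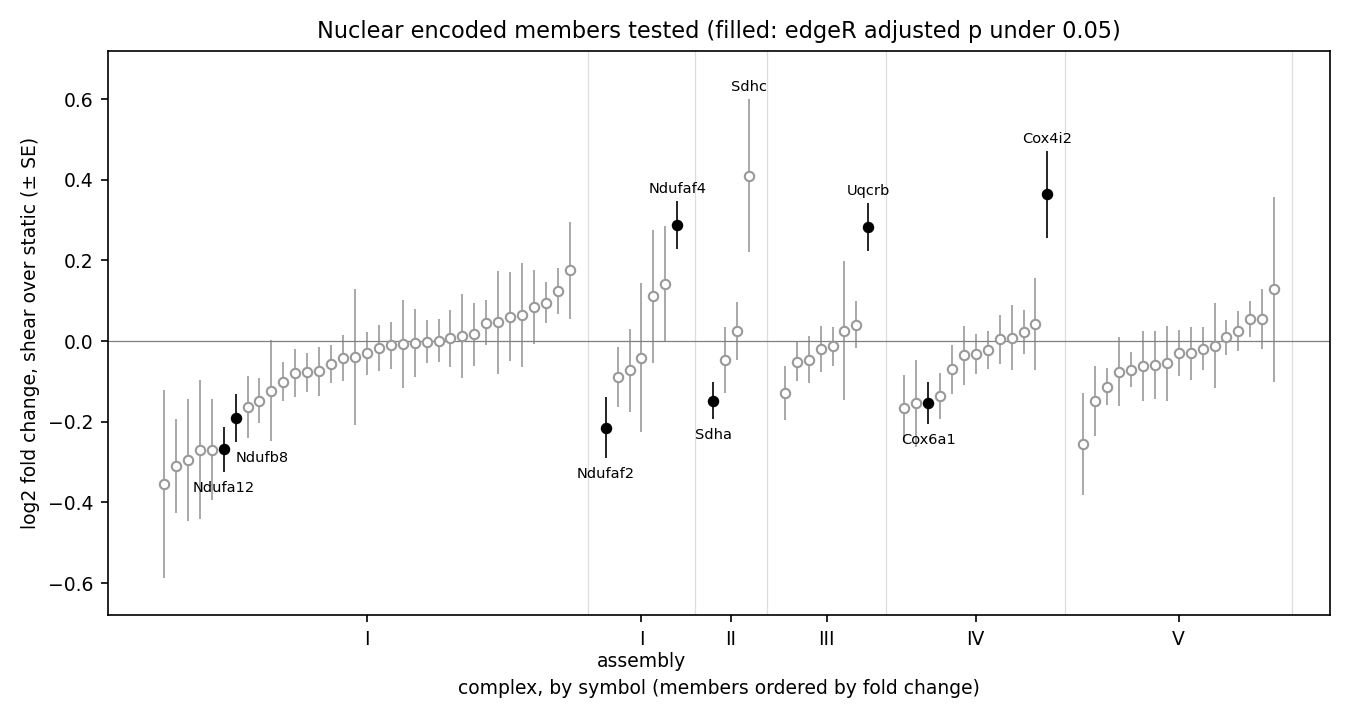
Log2 fold change, shear over static, with SE (y axis) of the 84 nuclear encoded members tested, grouped by complex and ordered by size within it (x axis). Filled points passed edgeR at adjusted p under 0.05 and are named: Ndufaf4, Uqcrb and Cox4i2 lie above 0, and Ndufa12, Ndufb8, Ndufaf2, Sdha and Cox6a1 below; Sdhc, open, has a wide error because of static replicate 3.

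Of the 84 nuclear encoded members tested, called or not, 54 had a log2 fold change below 0, and 52.6% of all genes tested did. The number ran from 51 to 69 over the settings, and no test was made of it. It was 69 under library totals alone, where the median over all genes tested was -0.062. In 13 the shear libraries lay below the static ones (15.5%, against 15.9% of all genes tested), and in 4 above (4.76%, against 16.7%). The 10 members too low to test, named after their values were seen, were Cox6a2, Cox6b2, Cox7a1, Cox7b2, Cox8b, Cox8c, Ndufb4l1, the pseudogenes Ndufv3-ps1 and Cox6c-ps1, and Ndufa13. Their highest count in any library was 13. Ndufa13 is a subunit gene of complex I needed by every respiring cell, and its 2 to 8 counts per library describe the row in the table, which is a single exon on chromosome 7. RefSeq places Ndufa13 on chromosome 16. Of the members tested, Ndufs5 is on chromosome 2 in the table and 5 in RefSeq, and Cox7a2l2 on 8 and 14. The counts of these members may belong to other copies and are uncertain. In Cox6b1, as in Uqcrb, exons lie on 2 chromosomes.

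Genes that serve oxidative phosphorylation without being part of it were counted in 11 lists, which together held 263 tested genes outside the module. Of these 23 rose and 10 fell (12.5% called), with a median log2 fold change of -0.03. Over all genes tested 18.5% were called, the share beside which the lists below are to be read. The lists were chosen with earlier results of these data known, so their shares are a description and no test of the lists. Of the 33 that passed, 11 did so in each of 16 alternatives and are the ones named below as having risen or fallen, while the other 22 lost the call in at least 1.

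Of 15 tested regulators of mitochondrial biogenesis, 5 rose and 2 fell (46.7% called), with a median of 0.05. Myc rose by 0.78 to 65.3 ± 4.0 CPM in shear, against 38.1 ± 1.5 CPM in static libraries (SD, n = 3 each, edgeR adjusted p = 3.4e-10). The nuclear receptor gene Ppard (0.38), the transcription factor gene Yy1 (0.31), and, outside the naming rule and named after their values were seen, Gabpb1 (0.31), a subunit of the ETS-type factor GABP, and Pprc1 (0.19), a relative of PGC-1, also rose. Prkaa1, a catalytic subunit of the energy sensor AMPK, fell by 0.34 to 27.5 CPM in shear, against 34.8 CPM in static libraries. The genes most often tied to mitochondrial number did not pass, and the estimates of Nrf1 and Esrra changed sign in some alternatives. Tfam, which packs mitochondrial DNA and starts its transcription, gave -0.06 ± 0.06, Nrf1 0.01 ± 0.06 and Esrra 0.06 ± 0.08 (SE, edgeR adjusted p 0.53 to 0.92). Ppargc1a, the coactivator PGC-1alpha, was barely expressed, with 14 to 22 counts in shear and 16 to 32 counts in static libraries (-0.35 ± 0.36, SE, edgeR adjusted p = 0.59).

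For the maintenance and transcription of mitochondrial DNA, 3 of 25 tested genes rose and 1 fell (16% called). Polg, the polymerase that copies mitochondrial DNA, rose by 0.29 ± 0.07 to 43.4 ± 4.5 CPM in shear, against 35.5 ± 1.4 CPM in static libraries (SE of the fold change, SD of the levels, n = 3 each, edgeR adjusted p = 0.0032). Of 73 tested genes of the mitochondrial ribosome 2 rose and 2 fell (5.48% called, median -0.06), and of 11 translation factors 0 rose and 1 fell. Of 22 assembly genes for complexes I, II, III and V that are not Ndufaf genes, 0 passed by edgeR and 2 had an unadjusted p under 0.05. Of 22 genes for complex IV assembly 1 rose and 1 fell.

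Of 23 genes for electron carriers and other electron donors, 4 rose and 0 fell (17.4% called). Chchd4, the oxidoreductase that folds proteins of the intermembrane space, rose by 0.64 ± 0.09 (SE, edgeR adjusted p = 1.6e-05) to 16.2 ± 1.8 CPM in shear, against 10.4 ± 0.8 CPM in static libraries (SD, n = 3 each). Coq10b, a ubiquinone-binding protein, rose by 0.48 ± 0.07 (SE, edgeR adjusted p = 1.4e-05). Of 25 genes of the TCA cycle and pyruvate entry 1 rose and 0 fell (4% called). Of 23 protein import genes 4 rose and 2 fell (26.1% called), and of 17 carriers and inner membrane genes 1 rose and 0 fell. Of 11 hypoxia-linked genes, 2 of which also belong to the module, 4 rose and 1 fell (45.5% called, median 0.17). Bnip3, a mitophagy receptor, rose by 0.48 ± 0.06 (SE, edgeR adjusted p = 6.9e-07). Hif1a, the oxygen-regulated subunit of the factor HIF-1, rose by 0.29 ± 0.05 (SE, edgeR adjusted p = 3.1e-05) to 378 ± 14 CPM in shear, against 308 ± 4 CPM in static libraries (SD, n = 3 each).

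**Figure D5:**
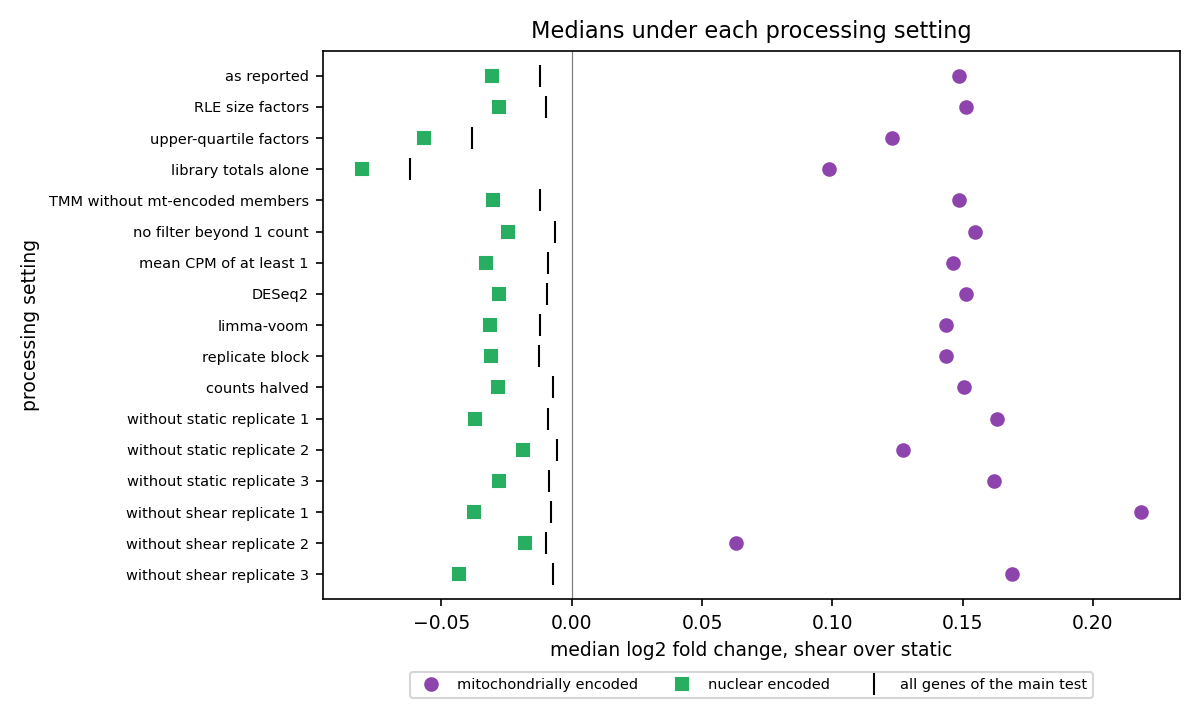
Median log2 fold change, shear over static (x axis), of the mitochondrially encoded members (circles), the nuclear encoded members (squares) and all genes tested (bars) under each processing setting (y axis). The circles lie between 0.063 (without shear replicate 2) and 0.22 (without shear replicate 1), and the squares between -0.08 and -0.018, below 0 in every setting. The bars are also below 0 in every setting, between -0.062 (library totals alone) and -0.0055 (without static replicate 2).

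Under each of the 17 settings the median of the mitochondrially encoded members lay above that of the nuclear encoded ones, by 0.081 without shear replicate 2 to 0.26 without shear replicate 1. A change of scaling shifts both medians alike, so such settings could hardly alter the distance. With all 6 libraries kept, the distance was 0.175 to 0.180. Since this is a distance between medians of members, no test was made of it.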

How the data were processed

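RNA was measured in 6 libraries of 2 groups, taken from the titles. The authors deposited 1 table of counts per gene with exon positions and summed exon length, per the file headers, and its columns were matched by the names that the labels repeat. Trimmomatic 0.36, Subread 1.5.1 with featureCounts, and edgeR 3.12.1 are named in the submitters' processing notes. For the aligner, build, annotation, strand setting and handling of multiply mapped reads, the status is: not given in the sources used here. Genes with near-identical copies, frequent in this family, are therefore uncertain, as are overlapping genes (in 8 members another gene covers over 10% of exon length).

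Here, edgeR 4.0.16 (R 4.3.3) was run on all genes with filterByExpr (minimum count 10), TMM factors, the quasi-likelihood test with no covariate, and Benjamini-Hochberg adjustment over 13945 genes. Each SE was derived from the size of the fold change and its F statistic. CPM used TMM-scaled totals, and TPM the deposited length. The alternatives included DESeq2 1.42.0 and limma 3.58.1. No replicate pair was treated as 1 library (chi-square over degrees of freedom 5.32 to 7.75). Members and lists were chosen with earlier results of these data known.

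The text names all mitochondrially encoded members, nuclear members that passed, per complex the member with the highest TPM and with the largest fold change, isoform pairs, and Ppargc1a, Tfam, Nrf1 and Esrra. Per related list up to 4 members that passed were eligible, of which those stable in each alternative are given.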

Additional observations from a re-analysis of the deposited data

How the results depend on the processing

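Of 1167 alternative values for 73 single results, 997 kept direction and side of the threshold, 128 lost the call, 14 gained one and 28 changed sign. Nuclear encoded members called lower numbered 9 with upper-quartile factors, 10 with library totals alone, 3 with no filter, 2 with the replicate block, and 1 to 6 with 1 library left out, against 5. Their median log2 fold change, -0.03, was -0.057 with upper-quartile factors, -0.080 with library totals alone, and -0.043 to -0.018 with 1 library left out. With upper-quartile factors the log2 fold changes of Atp5b, Cox6b1 and Nrf1 were -0.016, -0.022 and -0.014. With library totals alone Mt-nd3 had -0.017, Atp5b -0.040, Cox6b1 -0.045, Cox8a -0.00621 and Nrf1 -0.037. With 1 library left out, the log2 fold change ranged from -0.00260 to 0.025 for Atp5b, -0.055 to 0.00481 for Cox4i1, -0.043 to 0.037 for Cox6b1, -0.081 to 0.16 for Cox8a, -0.029 to 0.12 for Esrra, -0.14 to 0.013 for Mt-atp8, -0.00697 to 0.15 for Mt-co2, -0.015 to 0.086 for Mt-nd3, -0.00155 to 0.25 for Mt-nd6, -0.11 to 0.013 for Ndufa4, -0.16 to 0.085 for Ndufa4l2, -0.00206 to 0.039 for Nrf1 and -0.048 to 0.025 for Uqcrh. None of these 13 passed in the edgeR test used for the report. The cause of these shifts was not tested.

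Samples with the same replicate number did not deviate together (correlations -0.019, -0.019 and -0.000505), so the numbers were not taken to pair them. With the replicate block 1372 genes were called higher and 964 lower, against 1508 and 1075, and 5 mitochondrially encoded members were called, Mt-atp6 not among them. Ndufa12, Ndufaf4, Uqcrb, Mt-co1, Mt-cyb, Mt-nd4 and Mt-nd4l passed in each of the 16 alternatives.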
